A study of Homo sapiens with 12 samples.

Results

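HMOX1 and 9 other genes of heme and iron handling were followed on 12 mRNA arrays of human lung adenocarcinoma lines in which miR-197 was supplied or blocked. HMOX1 was selected on these same arrays, for its increase on the premiR-197 arrays over the AllStar-NC arrays, and the other genes were chosen around it. The members are the noncontrol probes that the scanner files name HMOX1, BLVRA, BLVRB, BACH1, FTH1, FTL, TFRC, SLC40A1, FECH or ALAS1. They came to 17 probes for 10 genes, out of 50599 noncontrol probes, and every one of the 17 passed the scanner's background test on each of the 12 arrays. FTH1 had 4 probes, FTL had 3, BACH1 and FECH had 2 each, and the remaining genes had 1.

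The lines were A549, PC14 and PC14CDDP, the last being a cisplatin (CDDP)-resistant derivative with PC14 as its parent. Each line was transfected at 25 nM with premiR-197, a synthetic precursor that supplies miR-197; with AllStar-NC, a negative control; with LNA-miR-197, a locked nucleic acid oligonucleotide against the miRNA; or with LNA-miR-NC, its control. All cultures received the DharmaFECT 1 transfection reagent and the same medium, and no untransfected culture was among the 12 arrays. From each culture 100 ng of RNA was hybridized to 1 array, so the 3 lines are the only replicates of a transfection. The p-values below measure the spread between lines, or between cultures of a line, of this experiment. PC14CDDP is 1 resistant line and stands for no other.

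Heme oxygenase-1, the product of HMOX1, opens the heme ring and releases iron, carbon monoxide and biliverdin, which the biliverdin reductases BLVRA and BLVRB handle further. The gene is held off by BACH1, a heme-binding repressor, and switched on by NRF2 at antioxidant response elements. It is widely used as a marker of oxidative and chemical stress. Iron taken up through the transferrin receptor TFRC is stored in ferritin, a shell of FTH1 and FTL chains, or leaves the cell through ferroportin, SLC40A1. ALAS1 and FECH catalyze the first and the last step of heme synthesis.

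The sequence that the transfections supply or block comes from the MIR197 hairpin on chromosome 1, plus strand. Both mature arms in RefSeq (GRCh38.p14) are given with the seed, bases 2 to 8, in capitals, since the seed directs most miRNA pairing. The labels name no arm.

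hsa-miR-197-3p: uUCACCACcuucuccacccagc

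hsa-miR-197-5p: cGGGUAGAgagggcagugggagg

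The arms lie at chr1:109598940-109598961 and chr1:109598901-109598923 and share no seed.

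HMOX1 was read by a single probe at chr22:35790122-35790181 (hg19, plus strand), printed on each array 10 times. Levels are log2 values over the 75th percentile of each array's noncontrol spots. In A549 the HMOX1 level was 6.37 after premiR-197, 4.72 after AllStar-NC, 5.49 after LNA-miR-197 and 5.79 after LNA-miR-NC. In PC14 it was 7.05, 5.18, 7.003 and 6.32 in the same order. In PC14CDDP it was 6.34, 3.71, 5.47 and 4.82. The AllStar-NC array was the lowest and the premiR-197 array the highest of the 4 in every line, and the SD between spots on 1 array lay between 0.0229 and 0.0766 on the log2 scale.

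**Figure D1:**
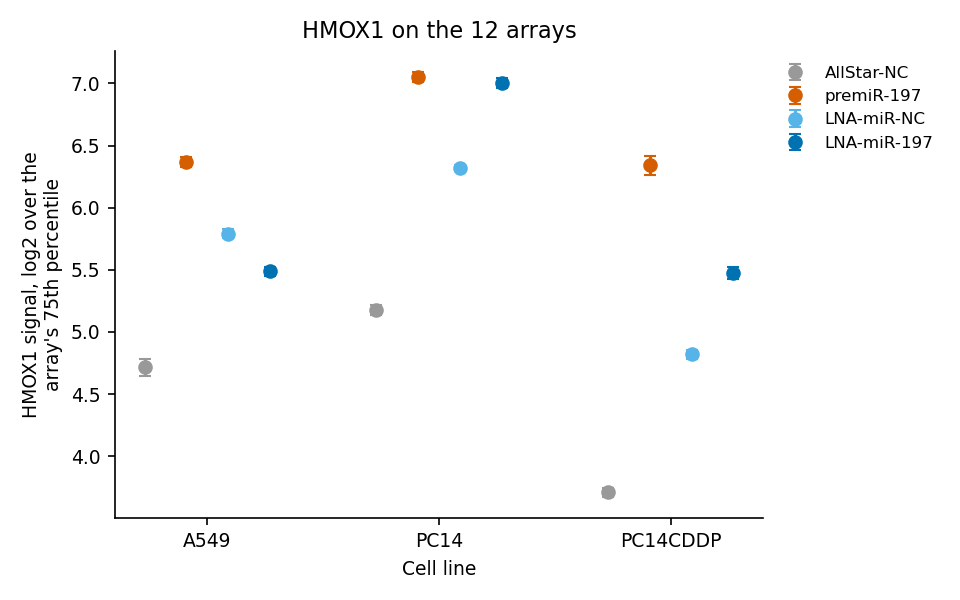
HMOX1 level on each of the 12 arrays (y axis: log2 of the signal over the array's 75th percentile) by cell line (x axis), coloured by transfection, with bars for the SD over 9 to 10 spots of the array. In each line the AllStar-NC point is lowest and the premiR-197 point highest, and in PC14 the LNA-miR-197 point, at 7.003, lies next to the premiR-197 point, at 7.05.

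After premiR-197 the HMOX1 signal was 3.14-fold that of AllStar-NC in A549 and 6.20-fold in PC14CDDP, with PC14 between them. The mean log2 ratio was 2.05 ± 0.51 (SD, n = 3), a mean of 4.15-fold. These values chose the gene, so they carry no test. Among probes higher in all 3 lines and well above background on at least 9 arrays, HMOX1 had the largest mean increase in this comparison. The next genes were SNORA63 at 1.80 and KRTAP2-3 at 1.78.

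HMOX1 was also higher after LNA-miR-NC, the other control, than after AllStar-NC. The log2 ratio was 1.08 in A549 and 1.14 in PC14, and PC14CDDP gave 1.11, a mean of 2.16-fold with an SD of 0.034 between lines. LNA-miR-197 exceeded AllStar-NC by log2 ratios of 0.77, 1.83 and 1.76 in A549, PC14 and PC14CDDP. Since these ratios share the AllStar-NC arrays on which HMOX1 was chosen, they are given as values without a test. The AllStar-NC array was the lowest of its line in all 3 lines for HMOX1 alone among the 17 member probes, and for 4.16% of all probes tested. The choice of HMOX1 used these AllStar-NC arrays and favoured a low value there, so this count is a description too. A given transfection always lay in one slide column, whatever the line, so slide position and transfection cannot be told apart.

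The log2 ratios of LNA-miR-197 over LNA-miR-NC use none of the arrays on which HMOX1 was chosen. The test takes its spread from all 12 arrays, which include those. HMOX1 did not pass the test in this comparison, nor in a limma fit of only the arrays compared (adjusted p = 0.485), where 0 of all 33714 probes were called. Its log2 ratio was -0.30 in A549, whereas PC14 gave 0.68 and PC14CDDP 0.65, with a mean of 0.34 (limma SE 0.25, adjusted p = 0.421). The direction in A549 was opposite to that in the other lines, and the mean was 0.67 without A549, 0.17 without PC14 and 0.19 without PC14CDDP.

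HMOX1 was lower in PC14CDDP than in its parental line. The level averaged 6.39 ± 0.87 in PC14, 5.59 ± 0.69 in A549 and 5.09 ± 1.11 in PC14CDDP (SD over the 4 transfections). PC14CDDP lay below PC14 in 4 of 4 transfections, 2.47-fold on average (log2 difference -1.30, SE 0.22, limma adjusted p = 0.00147). A549 lay below PC14 in 4 of 4 as well, 1.74-fold on average (log2 difference -0.80, SE 0.22, adjusted p = 0.0114). Both tests include the premiR-197 and AllStar-NC arrays on which HMOX1 was chosen, also in their spread. On the LNA-miR-197 and LNA-miR-NC arrays, not used to choose HMOX1, the differences were -1.53 and -1.50 for PC14CDDP and -1.52 and -0.53 for A549. The levels of the lines overlapped, and both calls rest on matching arrays by transfection. Without that matching the adjusted p was 0.0977 for PC14CDDP and 0.254 for A549, and the A549 call also depended on LNA-miR-197, with an adjusted p of 0.0590 when those arrays were left out.

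All 4 A549 arrays lay on slide 1 and the 8 arrays of PC14 and PC14CDDP on slide 2. A549 and its slide cannot be told apart in any comparison of A549 with PC14. PC14CDDP and PC14 shared slide 2, but PC14 lay in its row 1 and PC14CDDP in its row 2, so line and slide row cannot be told apart there.

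BLVRA set PC14CDDP apart from the other lines, and BLVRB set A549 apart. BLVRA, which reduces biliverdin to bilirubin, had levels from 4.88 to 5.04 in A549 and from 4.78 to 5.06 in PC14, but in PC14CDDP they were 3.25 to 3.77. PC14CDDP lay below PC14 on every array, 2.72-fold on average (log2 difference -1.45, SE 0.10, adjusted p = 1.46e-05). For A549 against PC14 the difference in BLVRA was 0.02 (SE 0.10, adjusted p = 0.860).

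BLVRB is a flavin reductase that also acts on biliverdin. Its level was 6.24 to 6.80 in A549, 4.29 to 4.57 in PC14 and 4.18 to 4.63 in PC14CDDP. A549 was 4.17-fold above PC14 (log2 difference 2.06, SE 0.13, adjusted p = 3.3e-06), with no overlap, while PC14CDDP and PC14 differed by -0.03 (SE 0.13, adjusted p = 0.861).

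BACH1, the gene of the HMOX1 repressor, was read by a bright and a dim probe. Probe 1 is assigned to an mRNA of the gene and the dim probe 2 to a noncoding transcript, so probe 2 need not follow the mRNA of the repressor. BACH1 probe 1 averaged 0.33 in A549, 1.12 in PC14 and 1.57 in PC14CDDP, in ranges that did not overlap. It was lower in A549 than in PC14 (-0.79, SE 0.11, adjusted p = 0.00023) and higher in PC14CDDP than in PC14 (0.46, SE 0.11, adjusted p = 0.00754). BACH1 probe 2 averaged -4.29, -3.22 and -3.09 in the same lines. It was lower in A549 (-1.07, SE 0.25, adjusted p = 0.00469, or -0.33 with normexp background correction), and its difference of 0.13 for PC14CDDP did not pass the test (adjusted p = 0.701).

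Ferritin heavy chain, FTH1, varied little between transfections, with an SD of 0.063 to 0.24 within a line. The 4 FTH1 probes averaged 8.23 to 8.71 in A549, 8.25 to 8.61 in PC14 and 7.47 to 8.09 in PC14CDDP. All 4 were lower in PC14CDDP than in PC14, with log2 differences from -0.79 to -0.52 and no overlap between the lines (adjusted p from 0.000284 to 0.00187). For A549 against PC14 no FTH1 probe passed the test, and the differences lay between -0.05 and 0.10.

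FTH1 has processed pseudogenes with nearly the same sequence, so these probes may also read their transcripts. A pair of the probes shows how close such sequences are. FTH1 probe 2 lies at chr11:61732293-61732352 and FTH1 probe 4 at chr11:61732276-61732335 (hg19, minus strand). They share 43 bases, and the capitals mark where they differ within them.

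FTH1 probe 2: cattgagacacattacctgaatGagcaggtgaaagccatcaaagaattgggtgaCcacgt

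FTH1 probe 4: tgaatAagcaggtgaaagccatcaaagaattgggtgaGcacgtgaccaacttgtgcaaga

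Counted from 1 at the 5′ end of probe 2, the differences in the shared stretch are G23A and C55G, with the base of probe 2 first. At these bases the probes cannot both match 1 FTH1 sequence. FTH1 probes 1 and 3 likewise differ at 2 of 26 shared bases. Which probe of each pair departs from FTH1 was not tested. Despite the differences, probes 2 and 4 gave close values for PC14CDDP against PC14, -0.75 for probe 2 and -0.79 for probe 4.

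Ferritin light chain, FTL, divided the lines otherwise. FTL probe 1 ranged from 7.54 to 7.78 in A549 and from 6.07 to 6.53 in PC14, and PC14CDDP spanned 5.59 to 6.55. The 3 FTL probes were 2.41 to 2.55-fold higher in A549 than in PC14, with log2 differences from 1.27 to 1.35 (adjusted p from 3.43e-05 to 6.53e-05) and no overlap. In PC14CDDP they were lower than in PC14 by log2 differences from -0.42 to -0.38 (adjusted p from 0.0332 to 0.0450). These calls were narrow. The LNA-miR-197 cultures did not share the difference, at -0.38 to -0.42 on average but between 0.02 and 0.04 there, and no FTL probe was called when the premiR-197, the AllStar-NC or the LNA-miR-NC arrays were left out (adjusted p from 0.124 to 0.199). FTL also has processed pseudogenes.

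**Figure D2:**
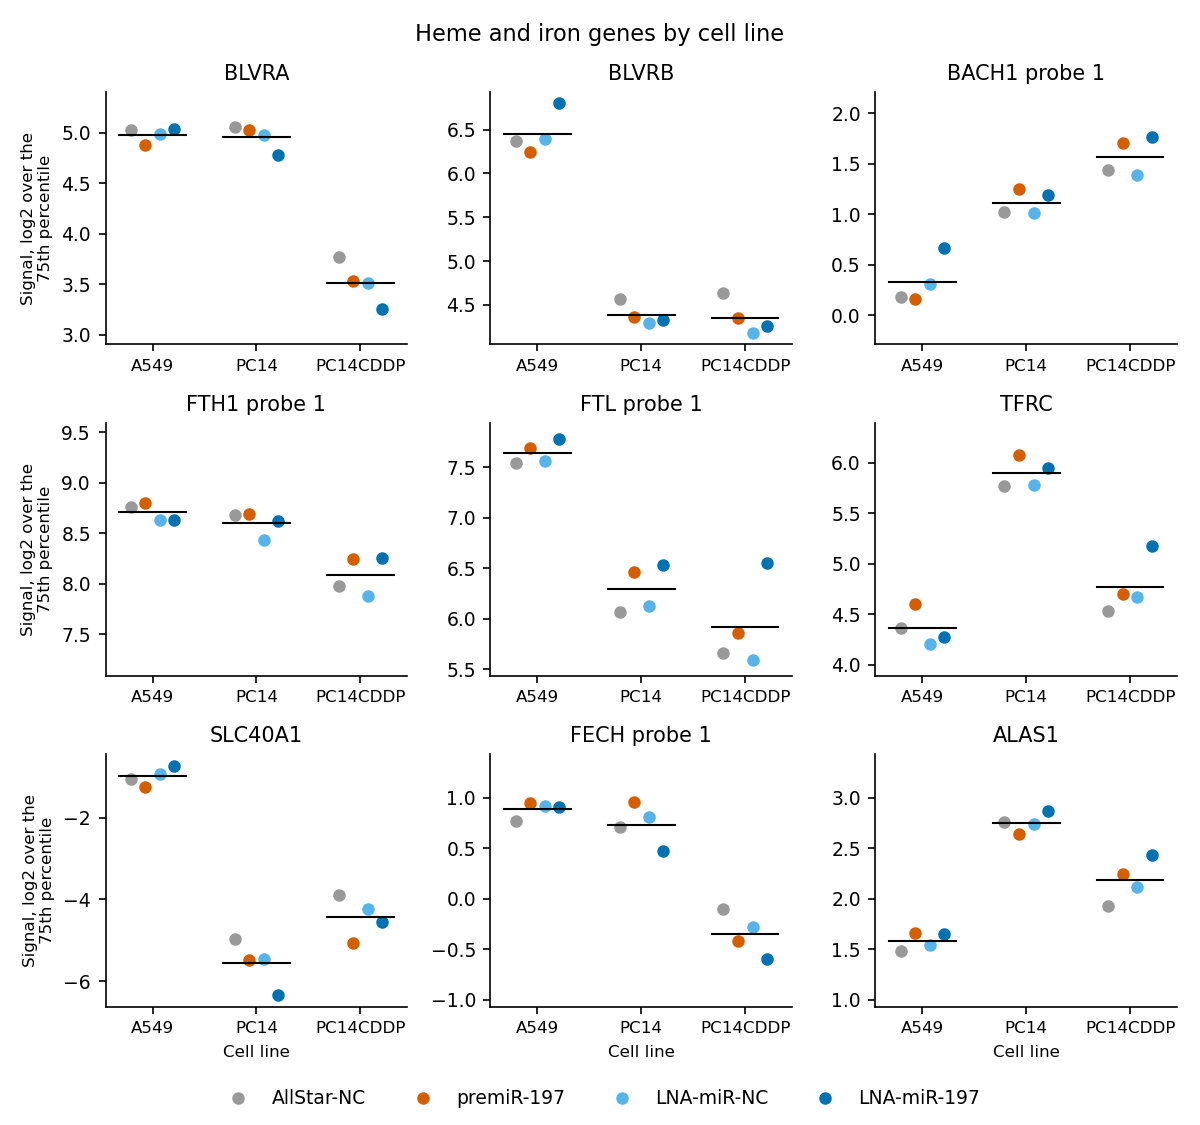
Level of 9 member probes on each of the 12 arrays (y axes: log2 of the signal over the array's 75th percentile, with a different range in each panel) by cell line, coloured by transfection, with black lines at the mean of the 4 arrays. BLVRB, FTL and SLC40A1 are highest in A549, TFRC and ALAS1 are highest in PC14, and BLVRA, FTH1 and FECH are lowest in PC14CDDP.

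The transferrin receptor gene TFRC had levels of 4.21 to 4.61 in A549, 5.77 to 6.08 in PC14 and 4.53 to 5.17 in PC14CDDP. PC14 was above both of the other lines on every array. TFRC was 2.90-fold lower in A549 (log2 difference -1.53, SE 0.13, adjusted p = 1.64e-05) and 2.19-fold lower in PC14CDDP (-1.13, SE 0.13, adjusted p = 0.000215).

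Ferroportin, SLC40A1, had levels from -1.25 to -0.73 in A549 and from -6.35 to -4.97 in PC14, and PC14CDDP spanned -5.07 to -3.90. PC14 was dimmest, and its LNA-miR-197 array, at -6.35, lay close to the dimmest probe well above background on that array, at -6.56. SLC40A1 was 24.0-fold higher in A549 than in PC14 (log2 difference 4.58, SE 0.27, adjusted p = 1.79e-06) and 2.19-fold higher in PC14CDDP than in PC14 (1.13, SE 0.27, adjusted p = 0.00835), where the ranges overlapped. The size of both depends on the background correction at such low signal, since normexp gave 2.40 and 0.39. The PC14CDDP call was lost without the LNA-miR-NC arrays (adjusted p = 0.0514). The spots of the SLC40A1 probe had an SD of up to 0.49 in PC14 against at most 0.083 in A549.

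The ends of heme synthesis were both lower in PC14CDDP than in PC14. ALAS1, the rate-limiting first enzyme outside erythroid cells, had levels from 1.49 to 1.66 in A549 and from 2.65 to 2.87 in PC14, and PC14CDDP spanned 1.93 to 2.44, with no overlap of PC14 with either. It was 2.25-fold lower in A549 (log2 difference -1.17, SE 0.09, adjusted p = 1.13e-05) and 1.49-fold lower in PC14CDDP (-0.57, SE 0.09, adjusted p = 0.00131).

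FECH, the ferrochelatase that inserts iron into the ring, was lower in PC14CDDP than in its parent by both probes. FECH probe 1 ranged from 0.47 to 0.95 in PC14, while PC14CDDP spanned -0.60 to -0.10 (log2 difference -1.08, SE 0.12, adjusted p = 0.000163). FECH probe 2, a dimmer probe, ranged from -3.49 to -2.76 and from -4.47 to -3.81 (-1.19, SE 0.11, adjusted p = 5.71e-05, or -0.49 with normexp). Neither probe passed the test between A549 and PC14, at 0.15 and -0.04 (adjusted p = 0.286 and 0.746).

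Counted over probes, 13 of 17 members were lower in PC14CDDP than in PC14 at an adjusted p under 0.05, where 23.3% of all 33714 probes tested were called lower. The other 2 calls, BACH1 probe 1 and SLC40A1, were higher, beside 25.5% of all probes. The median log2 difference was -0.54 over the member probes and 0.04 over all probes. The 13 probes belong to 7 genes, and FTH1, FTL and FECH hold 9 of them. Levels of the lines did not overlap for 10 of 17 member probes and for 36.1% of all probes.

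For A549 against PC14, 5 member probes were higher and 5 lower, beside 34.3% and 33.1% of all probes. The lines did not overlap for 9 of 17 member probes and for 57.9% of all probes, so these shares lie near the background. The median log2 difference was 0.02 over the members and 0.05 over all probes.

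**Figure D3:**
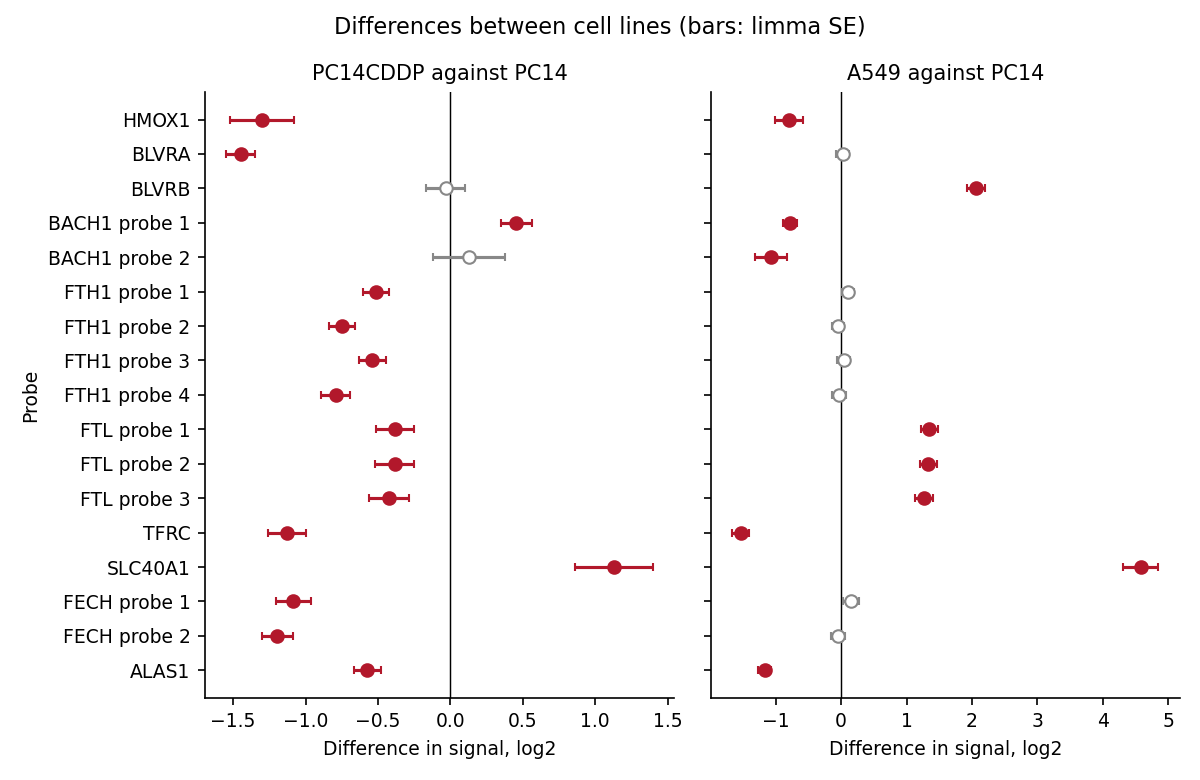
Log2 difference in signal of each of the 17 member probes (x axes, with different ranges) between PC14CDDP and PC14 and between A549 and PC14, with bars for the limma SE and filled points for an adjusted p under 0.05. On the left 13 points are called below 0 and 2 above, and on the right SLC40A1, at 4.58, stands farthest from 0.

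Between the LNA transfections 1 member probe passed the test. FECH probe 2 was lower after LNA-miR-197 than after LNA-miR-NC, with log2 ratios of -0.63 in A549 and -0.73 in PC14, and of -0.59 for PC14CDDP (mean -0.65, SE 0.12, limma adjusted p = 0.0274), while FECH probe 1 gave -0.22 (adjusted p = 0.348). The call for FECH probe 2 did not hold without A549, without PC14 or without PC14CDDP (adjusted p from 0.105 to 0.219), where 0 of all 33714 probes were called. The log2 difference of FECH probe 2 was -0.34 with normexp and -0.23 with AllStar-NC in place of LNA-miR-NC. Among all probes 3.96% were called lower and 4.03% higher in this comparison, and 0 members were called higher. The count of members at an unadjusted p under 0.05 was 5 of 17, beside 27.5% of all probes.

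The largest member increase after LNA-miR-197 was that of FTL, which did not pass the test. FTL probe 1 had log2 ratios of 0.22 in A549 and 0.40 in PC14, and PC14CDDP gave 0.96, and the 3 probes averaged 0.48 to 0.54 with adjusted p from 0.0699 to 0.101. All 3 were called with normexp (adjusted p from 0.0253 to 0.0375) and with a trend and robust prior (from 0.0203 to 0.0378). None was called with only the arrays compared (adjusted p from 0.255 to 0.290) or with slide as the block (from 0.395 to 0.506). Those settings called few probes of any kind. With only the arrays compared 0 of all 33714 probes were called, and with slide as the block 0 were called higher and 5 lower. Without PC14CDDP the means were 0.25 to 0.31 (adjusted p from 0.323 to 0.405), and again 0 of all probes were called. Counting direction only, 9 member probes were higher in all 3 lines, beside 23.6% of all probes, and 2 were lower in all 3, both FECH, beside 24.3%. The 9 hold 5 FTH1 and FTL probes, and the others are BLVRB, BACH1 probe 1, TFRC and ALAS1.

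After LNA-miR-NC against AllStar-NC, 0 of the 16 member probes other than HMOX1 were called, beside 0.326% of all probes called higher and 0.133% called lower by limma. FECH probe 2, at a mean log2 ratio of 0.42 (adjusted p = 0.204), was the only one of the 16 with an unadjusted p under 0.05. HMOX1, FECH probe 2 and BACH1 probe 2 were higher in all 3 lines, beside 17.2% of all probes. BLVRA and FTH1 probe 1 were lower in all 3, beside 26.5%.

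In the comparison on which HMOX1 was chosen, premiR-197 against AllStar-NC, 8 member probes were higher in all 3 lines and 3 were lower. The shares of all probes were 24.4% and 19.6%. Besides HMOX1 the 8 were FTH1 probes 1, 2 and 4, the 3 FTL probes and TFRC, whose mean log2 ratios lay between 0.10 and 0.27. The 3 lower were BLVRA at -0.14, BLVRB at -0.21 and SLC40A1 at -0.63. The mean of HMOX1 was 2.05, and the next highest among the members was that of BACH1 probe 2, at 0.38.

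**Figure D4:**
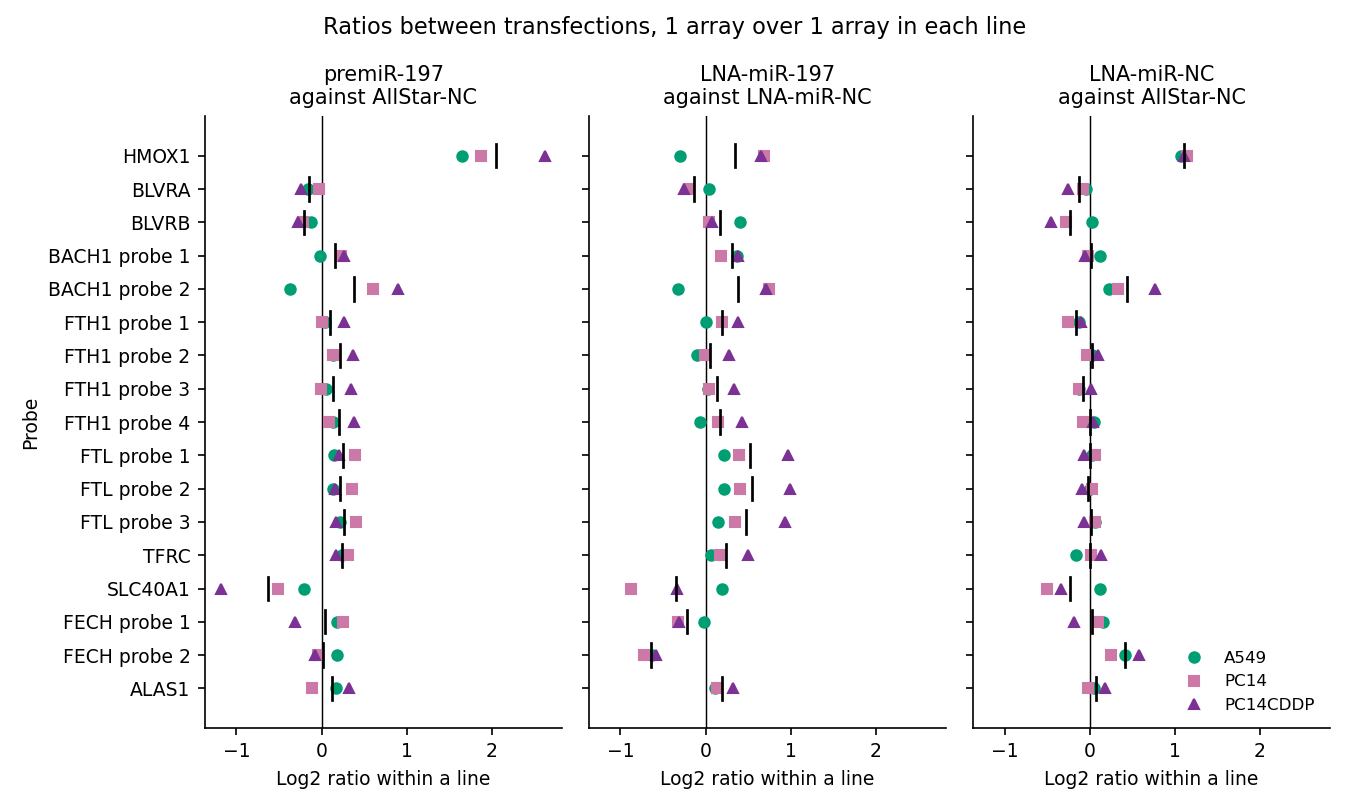
Log2 ratio of each of the 17 member probes within each line (x axes: 1 array over 1 array; circles A549, squares PC14, triangles PC14CDDP; black bars the mean of the lines) for premiR-197 against AllStar-NC, LNA-miR-197 against LNA-miR-NC, and LNA-miR-NC against AllStar-NC. HMOX1 stands apart on the left, where its mean is 2.05, and is at 1.11 in the comparison of the controls, where most members lie near 0.

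Other genes of heme and iron handling were read from lists, with 1 probe a gene. Of 12 heme synthesis genes, all tested, 4 were higher and 4 lower in PC14CDDP than in PC14, beside 25.5% and 23.3% of all probes. UROS, an enzyme in the middle of the pathway, fell by 1.14 on the log2 scale and PPOX by 0.48, whereas the mitochondrial carrier gene SLC25A38 was higher by 0.78, TMEM14C by 0.74 and ALAD by 0.51. The median of the 12 was 0.003. Between A549 and PC14 the counts were again 4 and 4, near the 34.3% and 33.1% of all probes, with UROD at -1.39, ALAD at -0.86 and CPOX at -0.70, and ABCB6 at 1.26 and ALAS2 at 0.78.

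Of 7 genes of heme export, import and breakdown, 5 were higher and 1 lower in A549 than in PC14, beside 34.3% and 33.1% of all probes, with a median log2 difference of 0.96. The exporter gene ABCG2 was higher by 4.43, FLVCR2 by 2.20 and HPX, the gene of the heme-binding plasma protein hemopexin, by 1.45, although HPX was well above background on 1 of 4 PC14 arrays. ABCG2 and FLVCR2 were dim in PC14, at mean levels of -5.44 and -5.71, so the sizes of their differences are uncertain. HMOX2, the constitutive heme oxygenase, was lower in A549 by a log2 difference of -0.83 and in PC14CDDP by -0.40 (adjusted p = 3.12e-05 and 0.00339). In PC14CDDP, PGRMC1 was higher by 0.59 and FLVCR1, the main heme exporter, fell by 0.52. FLVCR2 was also called lower there, but it was not well above background on any PC14CDDP array, and the bound is at least 1.10-fold.

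Of 25 genes of iron uptake, storage, export and sensing, 24 were tested. In PC14CDDP 8 were higher and 7 lower than in PC14, near the 25.5% and 23.3% of all probes. HFE was at 2.08, the metalloreductase gene STEAP2 at 1.55 and SLC39A8 at 1.23, and STEAP3 at -1.36 and FTMT at -0.56 were lower. CP was also called lower, at -1.22, but it was well above background on 1 of 4 PC14CDDP arrays. In A549 12 were higher and 6 lower, beside 34.3% and 33.1% of all probes. STEAP2 was higher there by 5.39 and ceruloplasmin, CP, a ferroxidase that works with ferroportin, by 3.57. In PC14 the probes of STEAP2, CP and HFE were dim, at mean levels of -4.81, -5.28 and -4.06. The sizes of their differences from PC14 may depend on the background correction, as that of SLC40A1 did, which was not tested for them. LCN2, the siderophore-binding lipocalin, was not well above background on any PC14 array and was at least 2.87-fold higher in A549. SLC25A37, a mitochondrial iron importer, was at -1.32 and PCBP1 at -0.45.

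NRF2 and BACH1 target genes and their partners, 17 of 18 tested, were mostly higher in A549 than in PC14. The counts were 13 higher and 2 lower, beside 34.3% and 33.1% of all probes, with a median log2 difference of 0.73. ME1 was higher by 2.60 and MAFK by 2.32, and MAFF at -1.59 and KEAP1, which targets NRF2 for degradation, at -0.90 were lower. HMOX1 itself was lower in A549, as given above. In PC14CDDP 6 were higher and 3 lower, beside 25.5% and 23.3% of all probes, with TXN at 0.96, TXNRD1 at 0.90 and MAFF at 0.88 against GCLC at -1.06 and MAFK at -0.91, and a median of -0.01. The probe of NFE2L2, the NRF2 gene, did not pass the background test on any array and was not tested.

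After LNA-miR-197 against LNA-miR-NC, 3 of the 17 tested in that list were called, all higher, beside 4.03% of all probes. MAFF, a small Maf partner of both NRF2 and BACH1, had a mean log2 ratio of 1.57 (SE 0.21, adjusted p = 0.0151), OSGIN1 had 1.21 (SE 0.28, adjusted p = 0.0424) and KEAP1 had 0.53 (SE 0.13, adjusted p = 0.0444). The median over the list was 0.31. In the other heme and iron lists FLVCR1 was called higher at 0.82, UROS lower at -0.54 and STEAP3 lower at -0.85. None of these calls held with any 1 line left out or with only the arrays compared, where 0 of all 33714 probes were called. Between the controls, 0 genes of any list were called.

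Of 15 heat shock and stress genes, none was called between either pair of transfections tested, with medians of 0.23 for LNA-miR-197 against LNA-miR-NC and 0.04 for the controls. In PC14CDDP 3 were higher than in PC14, DDIT3 at 1.84, HSPA8 at 0.57 and HSP90AA1 at 0.36, and 2 were lower, BAG3 at -1.03 and HSF1 at -0.56, beside 25.5% and 23.3% of all probes. In A549 4 were higher and 4 lower, beside 34.3% and 33.1%, led by ATF3 at 2.92 and GADD45A at -1.87. For premiR-197 against AllStar-NC, without a test, the list medians were -0.11 for heme synthesis, 0.20 for heme export, import and breakdown, 0.09 for iron, 0.11 for NRF2 and BACH1 targets and -0.10 for heat shock and stress genes, beside a median of 0.02 over all probes.

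The genes whose levels followed HMOX1 most closely over the 12 arrays, among 24609 probes well above background on all of them, were EIF2B4 (Pearson r = 0.917), NAT8L (0.903), AFF4 (0.883), SEC61A2 (0.879) and GAS2L3 (0.872). With the mean of each line taken off they were ZNF367 (0.972), CHCHD3 (0.963), SNRNP48 (0.959), DKC1 (0.958) and an unnamed probe, A_24_P374973 (0.958). The arrays share lines and controls and include those on which HMOX1 was chosen, so these r are descriptions. For premiR-197 over AllStar-NC, the log2 ratios of ZNF367 were 1.03, 1.12 and 1.32 in A549, PC14 and PC14CDDP, against 1.65, 1.88 and 2.63 for HMOX1. Among the members, SLC40A1 had the lowest r with line means taken off, at -0.79, and FTH1 probe 2 the highest, at 0.74. FTH1 probes 1, 3 and 4 had 0.41, 0.53 and 0.72, and SLC40A1 was dim in PC14 and PC14CDDP.

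A search of RefSeq promoter windows (300 bases around each gene start, GRCh38.p14) for the antioxidant response motif TGACNNNGC on either strand covered 8 member genes, in 10 windows. FECH held it, in 1 of the 10 windows, beside 13.3% of 35116 windows of all genes. HMOX1 and FTH1 had no window there and were not searched. Sites farther from a gene start than these windows were not covered, so the search cannot say whether a member has the motif elsewhere.

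All 12 arrays were of like quality. Their 75th percentiles ran from 613 to 719 in the scanner's units, 55.8% to 63.1% of probes were well above background, lowest on a PC14CDDP array, and 0 spots were saturated. Of the epithelial markers, KRT7, KRT8, KRT18 and KRT19 were well above background on 4 of 4 arrays of every line, while EPCAM and CDH1 were so on 4 of 4 in A549 and on 0 of 4 in PC14CDDP, with 3 and 2 of 4 in PC14. The lung lineage gene NKX2-1 was well above background on 0 of 4 A549 arrays and on 4 of 4 arrays of each of the other lines, NAPSA and SFTPC on 4 of 4 arrays of all 3 lines, and SFTPB on none. Among markers of other cell types, CD163 of macrophages and COL1A2 and PDGFRB of fibroblasts were well above background on no array, and HBB of erythroid cells on 2 of 4 A549, 0 of 4 PC14 and 1 of 4 PC14CDDP arrays. PECAM1 of endothelium was so on 1, 4 and 0 of 4. The part of these differences in the results was not tested. Fewer transcripts per cell and fewer expressing cells cannot be told apart in these RNA pools.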

How the data were processed

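mRNA from 12 cultures was hybridized to Agilent SurePrint G3 Human GE v2 1-colour arrays (Cy3). The authors deposited each array's Feature Extraction (10.7.3.1) output, from which the processed intensity, background-subtracted by the scanner software, was used. The array normalization is not given in the sources used here. Outlier spots and control spots were left out, spots of a probe averaged, and log2 intensity taken over the array's 75th percentile of noncontrol spots. Probes well above background on at least 3 of 12 arrays (33714) were fitted with limma 3.58.1 (R 4.3.3), with transfection and line as terms over all arrays and Benjamini-Hochberg adjustment over all probes (adjusted p under 0.05). Line blocks the transfections because same-numbered samples are the same cell line (correlations of deviations 0.929 to 0.947 in A549, 0.879 to 0.903 in PC14 and 0.845 to 0.897 in PC14CDDP). Members and lists were chosen with earlier results of these data known. Named genes are all members, up to 3 called genes per list and direction (some are not reported here), and the 5 probes most correlated with HMOX1. Alternatives were quantile normalization, normexp, filters, 1 probe a gene, other priors, other blocks, leaving out samples and the methods' t-test. A bound of "at least" sets the dim group at each array's dimmest probe well above background. Probe names are those of the array files, and 28170 of 50599 probes matched RefSeq by accession. The fits were tested on simulated data.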

Additional observations from a re-analysis of the deposited data

Results flagged for a closer look

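Results whose direction was opposite between lines are given here, and none of these differences between lines was tested, since each line has 1 array per transfection. The dim BACH1 probe 2 is assigned to a noncoding transcript of the gene. For premiR-197 against AllStar-NC it had log2 ratios of -0.37 in A549 and 0.60 in PC14, and PC14CDDP gave 0.90, a range of 1.26. For LNA-miR-197 against LNA-miR-NC the same probe had -0.33, 0.75 and 0.71, a range of 1.07. HMOX1 had -0.30, 0.68 and 0.65 in that comparison, a range of 0.99. In each, A549 was the line that moved the other way, and A549 alone lay on slide 1.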

How the results depend on the processing

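For LNA-miR-197 against LNA-miR-NC, 1 member probe was called, and the count was 2 with quantile normalization, 4 with normexp, 3 with probes well above background on all 12 arrays, 4 with a trend and robust prior, and 0 without the filter on dim probes, with 1 probe a gene, with only the arrays compared, without the replicate block of line, with slide as the block, by the methods' t-test, and with any 1 line left out (0 to 0). Between the controls the count was 0, and 1 with a trend and robust prior, which was HMOX1, chosen on those AllStar-NC arrays and so without a test there. For PC14CDDP against PC14 it was 15, and 9 with 1 probe a gene, which tests fewer probes by construction, and 11 to 15 with 1 transfection left out. For A549 against PC14 it was 10, and 7 with 1 probe a gene and 9 to 10 with 1 transfection left out. HMOX1 kept its direction in every alternative run. Runs that change only the block, prior or filter leave the estimate as it was, so the direction could not change there. On the arrays used to choose HMOX1, the direction was favoured by that choice. With AllStar-NC in place of LNA-miR-NC its log2 ratio after LNA-miR-197 was 1.45, on arrays used to choose it, and between the controls it was 1.18 with quantile normalization. Its difference of -1.30 for PC14CDDP had adjusted p of 0.0977 without the transfection block and 0.219 by the methods' t-test, and that of -0.80 for A549 had 0.254 and 0.261. With 1 transfection left out the A549 value ran from -0.91 to -0.56. The cause was not tested. Without the replicate block of line, 0 probes of all were called higher and 3 lower after LNA-miR-197, in place of 1358 and 1336. Without the filter the median of all probes was 0.16 for PC14CDDP and 0.12 for A549 against PC14. Dim probes (SLC40A1, FECH probe 2, BACH1 probe 2) are limited by signal over background, and 3 lines limit every transfection contrast.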
